A study of Mus musculus with 14 samples.

Results

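The nuclear genes that encode subunits of the oxidative phosphorylation machinery were described across 3 stages of mouse medulloblastoma development. Members were the genes whose single array symbol names a subunit of complex I (Nduf), complex II (Sdh), complex III (Uqcr and Cyc1), cytochrome c (Cycs), complex IV (Cox4 to Cox8) or ATP synthase, complex V (Atp5). This gave 70 genes measured by 96 probe sets, out of 8251 genes and 12422 probe sets. Complex I had 28 of these genes, complex II 4, complex III 8, cytochrome c 1, complex IV 15 and complex V 14. Each gene was represented by its probe set with the highest mean log2 intensity over the 14 arrays.

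All groups came from mice heterozygous for patched, the gene of the receptor that restrains hedgehog signalling, kept by breeding with 129X1/SvJ mice. Granule cell precursors, abbreviated GCP (n = 4), divide in the young cerebellum to form its granule neurons and were taken at 7 days of age. Preneoplastic cells, here pretumor (n = 5), were taken at 6 weeks, and tumor cells (n = 5) at 10 to 25 weeks from mice with signs of medulloblastoma, a cerebellar tumor. Cells were dissociated, enriched on a Percoll gradient and not purified by flow cytometry. Age and stage change together, so they cannot be told apart. The labels do not state whether samples of a group came from separate or pooled animals, so p-values reflect the spread between these samples alone, and part of that spread may be technical. In such mixed suspensions, fewer cells of a type and less RNA per cell cannot be told apart.

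Oxidative phosphorylation takes place in the inner mitochondrial membrane. Complexes I and II pass electrons from NADH and succinate to ubiquinone, complex III passes them on to cytochrome c, and complex IV hands them to oxygen. The proton gradient built up on the way drives ATP synthase. Most subunits are encoded in the nucleus, a few in the mitochondrial genome, and the nuclear genes are known targets of NRF1, of the ETS factor GABPA and of YY1. Cerebellar granule cell precursors are known for strong aerobic glycolysis while they divide under hedgehog signalling, and neurons rely on oxidative phosphorylation once mature.

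The 150 bases upstream of the annotated start are shown for members that passed the test in any comparison, because these genes carry the results by name. They were taken from RefSeq on GRCm38.p6 and are given 5′ to 3′ on the strand of the gene. Capitals mark a match on either strand to the GABPA motif CCGGAAG (Sdhd and Cox6a1) or to the NRF1 core CGCATGCG (Ndufa8). The stretches are those of Ndufv3 (chr17:31519965-31520114, plus strand), Ndufa8 (chr2:36049339-36049488, minus strand), Ndufa9 (chr6:126849145-126849294, minus strand), Sdha (chr13:74350241-74350390, minus strand), Sdhd (chr9:50603850-50603999, minus strand) and Cox6a1 (chr5:115348959-115349108, minus strand). Sdhc also passed the test.
Ndufv3: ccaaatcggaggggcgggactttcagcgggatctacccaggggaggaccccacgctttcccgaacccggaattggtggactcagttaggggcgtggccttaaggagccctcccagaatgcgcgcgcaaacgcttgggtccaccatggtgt
Ndufa8: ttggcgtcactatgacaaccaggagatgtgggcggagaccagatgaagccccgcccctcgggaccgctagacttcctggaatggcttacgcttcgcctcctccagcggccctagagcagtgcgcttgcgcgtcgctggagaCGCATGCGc
Ndufa9: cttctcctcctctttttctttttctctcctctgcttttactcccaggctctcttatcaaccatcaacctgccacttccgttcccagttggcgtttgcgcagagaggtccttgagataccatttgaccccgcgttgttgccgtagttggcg
Sdha: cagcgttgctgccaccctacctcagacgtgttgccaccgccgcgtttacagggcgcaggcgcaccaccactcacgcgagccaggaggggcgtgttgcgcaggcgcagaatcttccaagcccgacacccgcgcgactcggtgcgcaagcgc
Sdhd: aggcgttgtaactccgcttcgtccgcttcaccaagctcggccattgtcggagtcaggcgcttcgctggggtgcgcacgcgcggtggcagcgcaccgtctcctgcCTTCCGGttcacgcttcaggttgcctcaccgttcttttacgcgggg
Cox6a1: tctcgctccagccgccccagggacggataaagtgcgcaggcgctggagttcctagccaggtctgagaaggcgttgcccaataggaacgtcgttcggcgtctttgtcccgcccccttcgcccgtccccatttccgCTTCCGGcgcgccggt

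The match began at position -46 from the start in Sdhd, at -16 in Cox6a1 and at -9 in Ndufa8. No match to the letters searched lay in the stretches of Ndufv3, Ndufa9 and Sdha. Of the 70 genes, 56 had a promoter entry, which covers 250 bases before to 50 after the start. In these windows the GABPA letters occurred in 15 genes (26.8%), against 17.1% of the 6576 array genes with an entry and 9.93% of all 27025 genes with one. The NRF1 core occurred in 9 genes (16.1%), against 3.71% and 2.07%, and with a G before and a C after it in 4 genes (7.14%), against 1.93% of the array genes. The YY1 motif CAAGATGGC occurred in 4 genes (7.14%), against 2.22% and 1.42%. Both strands were searched and none of these motifs contains another. At least 1 of the 3 occurred in 23 genes (41.1%), against 21.4% and 12.7%. A match describes letters and not a bound site, and a missing match says nothing about the factor.

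Intensities below 16 (log2 of 4) formed a narrow band that is called the low band here. It held 70.5% of all values and is taken to lie near background, which was not measured. For 16 subunit genes all 14 arrays lay in this band: Ndufa1, Ndufa10, Ndufa12, Ndufc2, Cox5a, Cox6a2, Cox6b1, Cox6b2, Cox7a1, Cox8a, Cox8b, Cox8c, Atp5d, Atp5j2, Atp5k and Atp5pb. Several of these encode subunits that every cell with mitochondria needs, so a value in the band is a limit of the probe set and does not show that the gene was silent. Ndufs4 lay there on 12 arrays, Ndufa13 and Atp5g1 on some arrays, and 51 genes on none. A mean over all arrays of at least 4 was reached by 53 genes: 23 of complex I, 4 of complex II, 8 of complex III, cytochrome c, 7 of complex IV and 10 of complex V.

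Most subunit genes had a slightly lower mean in tumor than in GCP, and few of these differences exceeded the spread between arrays. In tumor minus GCP, 5 of the 70 genes fell and 0 rose (7.14% lower, limma, adjusted p under 0.05 over 12422 probe sets, a threshold that defines a call), against 3.93% called lower, 1.7% called higher and 5.62% called in either direction among the 8251 genes. The 5 were Ndufv3, Ndufa8, Sdhc, Sdhd and Cox6a1. At an unadjusted p under 0.05, 14 genes lay lower (20%, against 10.5% of all genes) and 1 higher (1.43%, against 7.49%). Of the 53 genes above the low band, 49 had a negative difference (92.5%) and their median difference was -0.23 on the log2 scale, with quartiles of -0.30 and -0.13. Among all 2996 genes above the low band, 50.7% were negative and the median was -0.01. Over all 70 subunit genes the median was -0.17. The members' difference depended on GCP 3 and GCP 4: without these 2 arrays, a setting chosen after seeing the data, 37 of the 53 differences were negative, the median was -0.11 and 0 members passed the test. Of single arrays left out, GCP 4 lowered the 5 calls to 1, GCP 2 and GCP 3 to 2 each, and tumor 1 and tumor 4 to 3 each.

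Between tumor and pretumor, 0 of the 70 genes passed the test in limma, where 1.09% of all genes did. At an unadjusted p under 0.05, 5 lay lower (7.14%, against 5.84% of all genes) and 2 higher (2.86%, against 6.41%). Of the 53 genes above the band, 41 had a negative difference (77.4%, against 47.3% of all genes), with a median of -0.11 against 0.02. Without pretumor 3 the number was 34.

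In pretumor minus GCP, Sdha rose, and Ndufa9 and Sdhd fell. These 3 calls were 4.29% of the 70 genes, below the 5.24% called among all genes (1.99% higher and 3.25% lower). At an unadjusted p under 0.05, 8 members lay lower (11.4%, near the 10.3% of all genes) and 1 higher (1.43%, against 7.74%). Of the 53 genes above the band, 39 had a negative difference (73.6%, against 53.3% of all genes), with a median of -0.10 against -0.02. Without GCP 3 and GCP 4 the split was 27 negative and 26 positive with a median of -0.01, and 0 members passed the test. The 2 lower calls became 0 without GCP 3, GCP 4, pretumor 1 or pretumor 5, 1 without GCP 2, pretumor 2, pretumor 4, tumor 3, tumor 4 or tumor 5, 3 without GCP 1 or tumor 2 and 4 without tumor 1. The 1 higher call was lost without GCP 2, GCP 4, pretumor 1, pretumor 2, pretumor 3, pretumor 4 or tumor 4.

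**Figure D1:**
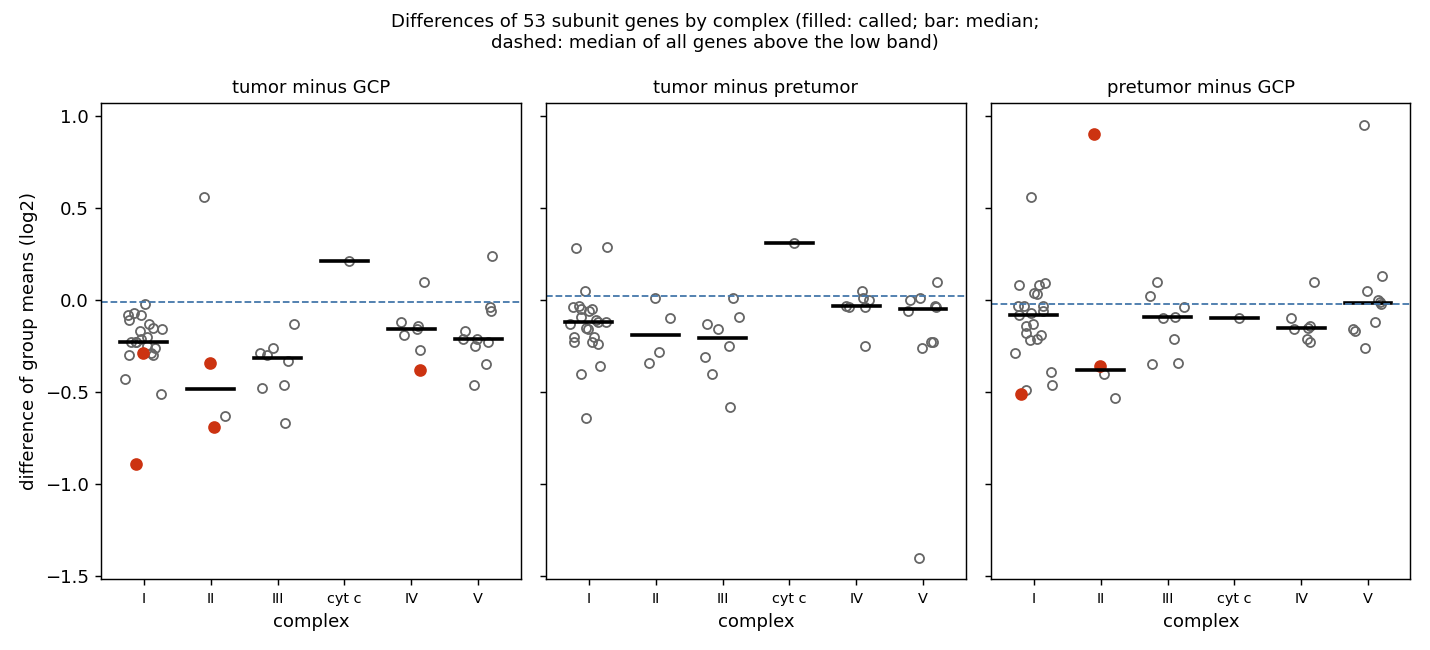
Differences of group means (log2, y axis) of the 53 subunit genes above the low band, by complex (x axis), for the 3 comparisons; each circle is a gene, filled circles passed the test, black bars are medians and the dashed line is the median of all 2996 genes above the band. In tumor minus GCP 49 of the 53 circles lie below 0, and the 3 comparisons share samples.

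By group mean, GCP was the highest stage for 38 of the 53 genes (71.7%, against 40.3% of all genes above the band), and tumor the lowest for 40 (75.5%, against 30.2%). Both held for 29 genes (54.7%, against 19.8%). The same direction was present among genes of like brightness. Of the 36 members with a mean log2 intensity of at least 8, 35 were lower in tumor than in GCP by group mean (97.2%, median -0.23), while 53.9% of the 1209 genes of that brightness were (median -0.03).

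The ranges of single genes overlapped for most members. All tumor arrays lay below all GCP arrays for 6 of the 53 genes (Ndufa8, Ndufv3, Sdhc, Sdhd, Uqcr11 and Uqcrc1; 11.3%), against 8.41% of all genes above the band, and above them for 0, against 6.11%. Tumor lay below pretumor on every array for 1 gene, Ndufa8 (1.89%, against 2.5%), and above it for 0, against 1.03%. Pretumor lay below GCP on every array for Ndufa9, Ndufv3, Sdhc and Cox7a2l (7.55%, against 9.51%) and above it for Sdha (1.89%, against 9.01%). The shares that lay lower were near the background in each comparison, and the shares that lay higher were below it.

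**Figure D2:**
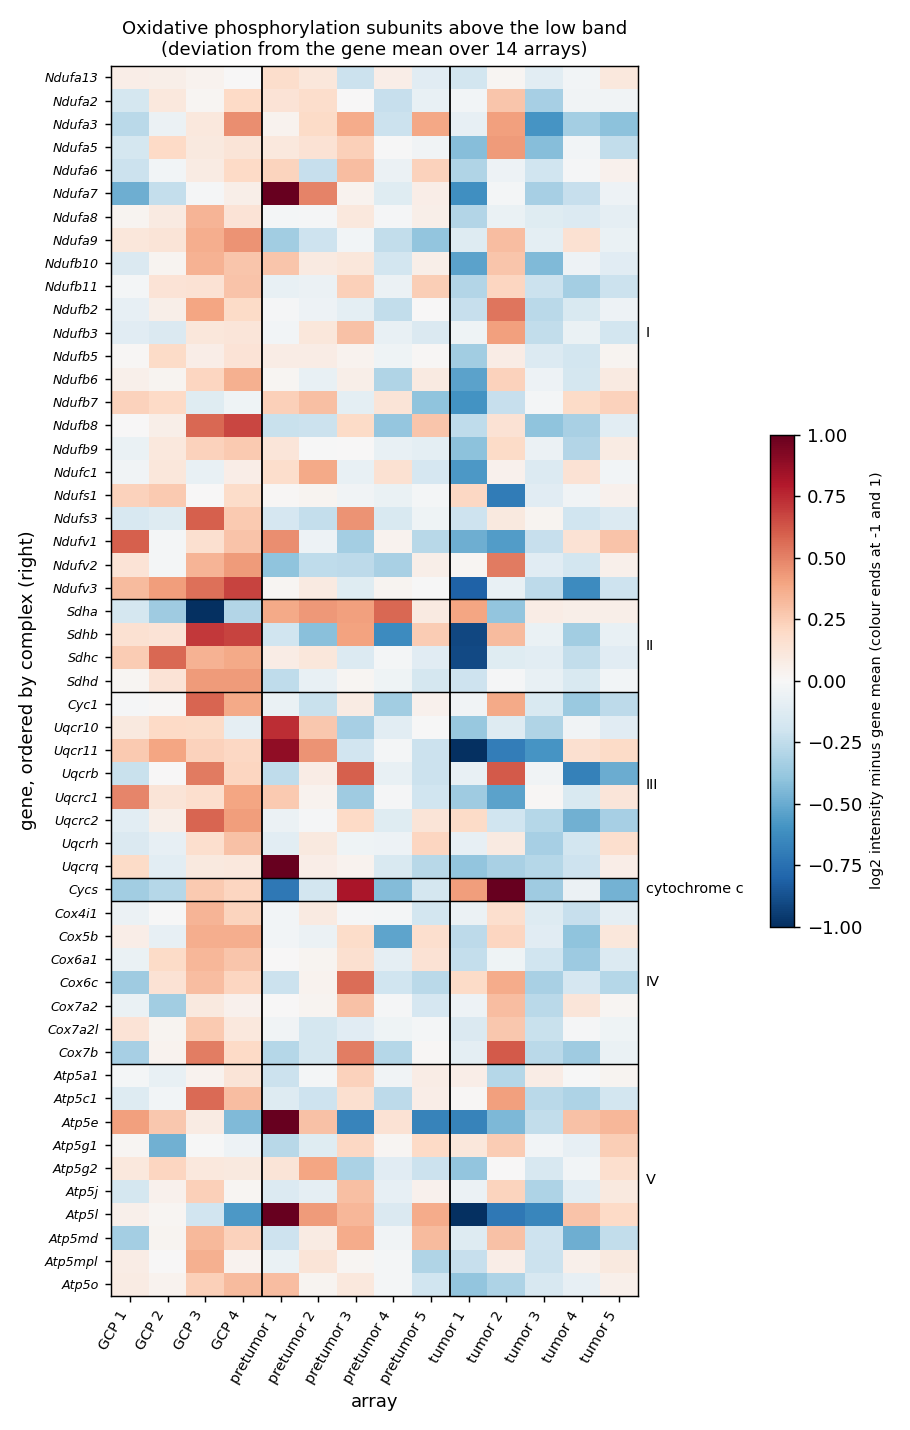
Deviation of log2 intensity from the mean of the gene over 14 arrays (colour, ends at -1 and 1) for the 53 subunit genes above the low band (rows, by complex) on each array (columns, by stage). Red prevails on GCP 3 and GCP 4 and blue on most tumor arrays other than tumor 2, which was the highest tumor array for 33 of the 53 genes.

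Complex I, which oxidises NADH, was lower in tumor than in GCP by group mean for 23 of its 23 genes above the low band, with a median difference of -0.23. The differences ran from -0.89 to -0.02, and 2 genes passed the test, Ndufv3 and Ndufa8 (7.14% of 28, against 3.93% of all genes called lower). In tumor minus pretumor 20 of 23 were negative (median -0.12), and in pretumor minus GCP 17 of 23 (median -0.08).

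Ndufv3 encodes a small accessory subunit of the arm that binds NADH. Its log2 intensity was 6.77, 6.87, 7.00 and 7.13 in GCP, 6.47, 6.54, 6.33, 6.48 and 6.45 in pretumor, and 5.64, 6.38, 6.19, 5.82 and 6.24 in tumor. All tumor arrays lay below all GCP arrays, as did all pretumor arrays, while tumor and pretumor overlapped at a single array. Tumor averaged 6.05 ± 0.31 and GCP 6.95 ± 0.16 (SD, n = 5 and 4), a difference of -0.89 (SE 0.14, limma, adjusted p = 0.00264) or 1.86-fold lower in tumor. Pretumor minus GCP was -0.49 (adjusted p = 0.0678) and tumor minus pretumor -0.40 (adjusted p = 0.213). The call was kept in 24 of 25 alternatives and ended without GCP 3 and GCP 4 together (adjusted p = 0.0633).

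Ndufa8, an accessory subunit on the intermembrane side, measured 8.42, 8.48, 8.73 and 8.53 in GCP, 8.37, 8.38, 8.50, 8.38 and 8.45 in pretumor, and 8.10, 8.33, 8.27, 8.26 and 8.30 in tumor. The tumor arrays lay below every array of both other stages. Its difference was small but so was its spread: tumor minus GCP was -0.29 (SE 0.06, limma, adjusted p = 0.0211), 1.22-fold lower in tumor, and tumor minus pretumor -0.16 (adjusted p = 0.297). The call ended in 6 of 25 alternatives, among them without GCP 4 (adjusted p = 0.0574).

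Ndufa9, an accessory subunit near the joint of the matrix and membrane arms, had its lowest mean in pretumor. It measured 9.82, 9.84, 10.07 and 10.16 in GCP, 9.36, 9.50, 9.68, 9.46 and 9.31 in pretumor, and 9.58, 10.02, 9.61, 9.86 and 9.64 in tumor. Every pretumor array lay below every GCP array, and the tumor arrays spanned the gap between them. Pretumor minus GCP was -0.51 (SE 0.11, limma, adjusted p = 0.0212), 1.42-fold lower in pretumor, and tumor minus pretumor was 0.28 (adjusted p = 0.306). The call ended in 8 of 25 alternatives. Among them were the fits without GCP 3 (limma, adjusted p = 0.0707), GCP 4 (0.0730), pretumor 1 or pretumor 5 (0.0501 each), and with averaged GCP pairs (0.145).

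None of the 4 core subunits of complex I among the members passed the test. Ndufv1, which binds NADH and the flavin, differed by -0.43 in tumor minus GCP (adjusted p = 0.376), Ndufs1 by -0.29 (adjusted p = 0.359), Ndufs3 by -0.23 (adjusted p = 0.648) and Ndufv2 by -0.16 (adjusted p = 0.716). The membrane subunit Ndufb8 differed by -0.51 (adjusted p = 0.168), with 10.44, 10.49, 11.01 and 11.10 in GCP, 10.21, 10.22, 10.63, 10.05 and 10.71 in pretumor and 10.18, 10.58, 10.03, 10.11 and 10.33 in tumor. GCP 3 and GCP 4 lay above the other 12 arrays, and GCP 1 and GCP 2 overlapped both later stages.

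Ndufb5, a membrane arm subunit, had 11.95, 12.13, 12.00 and 12.07 in GCP, 12.01, 12.01, 11.97, 11.89 and 11.95 in pretumor and 11.59, 12.01, 11.80, 11.75 and 11.96 in tumor (tumor minus GCP -0.21, adjusted p = 0.144). Ndufa7, an accessory subunit, had 8.41, 8.66, 8.89 and 8.96 in GCP, 10.36, 9.40, 8.94, 8.78 and 8.97 in pretumor and 8.29, 8.88, 8.57, 8.67 and 8.85 in tumor. Pretumor 1 was its highest array by far, and pretumor 2, at 9.40, also lay above all GCP and tumor arrays. No comparison of Ndufa7 passed the test. Ndufs4, an accessory subunit whose loss causes a Leigh-like brain disease in mice, had 3.05, 3.29, 4.15 and 4.15 in GCP, 2.71, 2.77, 2.94, 2.85 and 3.31 in pretumor and 2.81, 2.66, 2.44, 2.74 and 3.14 in tumor. Only GCP 3 and GCP 4 left the low band, all 3 group means lay in it, and no fold is given (tumor against GCP, adjusted p = 0.055).

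**Figure D3:**
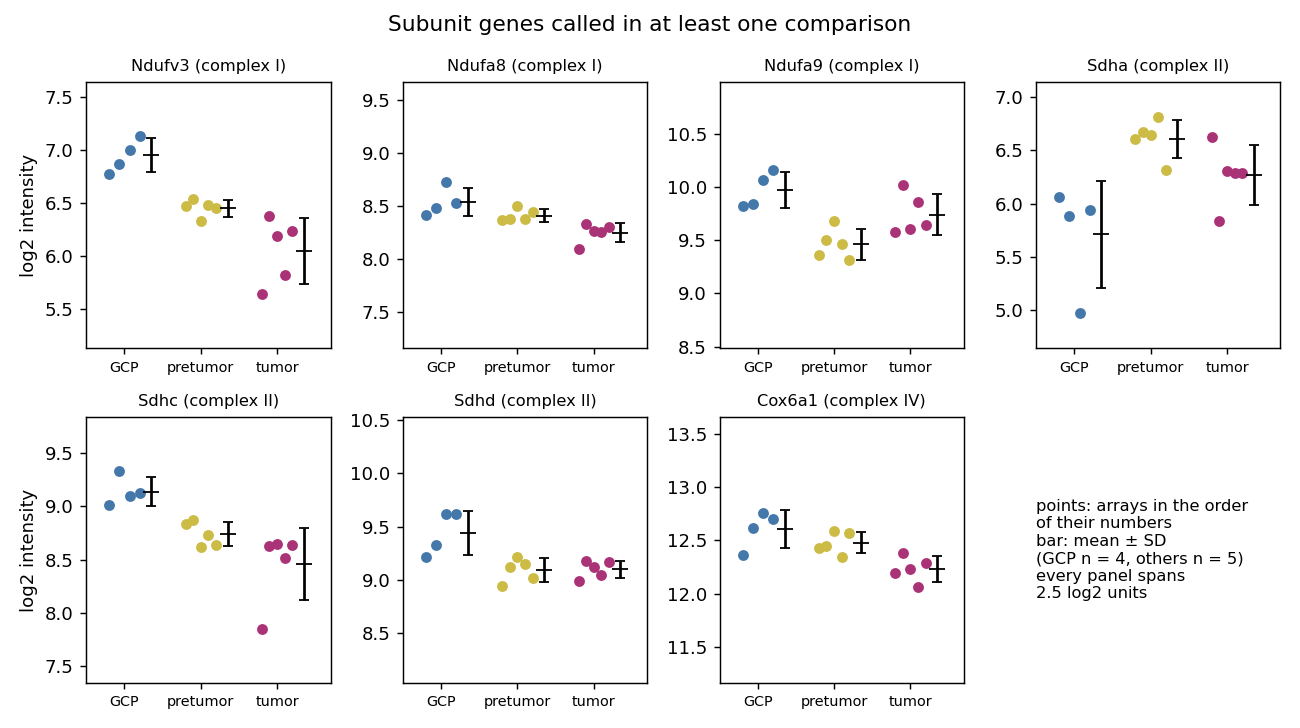
Log2 intensity (y axis; every panel spans the same number of units) on each array of the 7 subunit genes that passed the test in at least 1 comparison, by stage (x axis); points are arrays in the order of their numbers and bars are means ± SD (GCP n = 4, pretumor and tumor n = 5). Ndufv3 lay at 5.64 to 6.38 in tumor, below its GCP arrays at 6.77 to 7.13, while Sdha was lower on every GCP array than on every pretumor array.

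Complex II (succinate dehydrogenase), which also serves in the citric acid cycle, held 3 of the 7 genes that passed the test in any comparison. In tumor minus GCP, 2 of its 4 genes were called lower, against 3.93% of all genes. In pretumor minus GCP, 1 was called higher and 1 lower, against 1.99% and 3.25%. With only 4 genes, these shares are coarse. The subunits of complex II differed in direction. The membrane anchors Sdhc and Sdhd fell in tumor against GCP, the flavin subunit Sdha rose in pretumor against GCP, and the iron-sulfur subunit Sdhb passed no test. The median of the 4 genes was -0.49 in tumor minus GCP, -0.19 in tumor minus pretumor and -0.38 in pretumor minus GCP.

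Sdhc measured 9.01, 9.33, 9.10 and 9.13 in GCP, 8.83, 8.87, 8.62, 8.73 and 8.64 in pretumor, and 7.85, 8.63, 8.65, 8.51 and 8.64 in tumor. All arrays of both later stages lay below all GCP arrays, and tumor 1 lay far below the rest. Tumor averaged 8.46 ± 0.34 and GCP 9.14 ± 0.14 (SD, n = 5 and 4), a difference of -0.69 (SE 0.15, limma, adjusted p = 0.0214) or 1.61-fold lower in tumor. Pretumor minus GCP was -0.40 (adjusted p = 0.187). The call ended in 9 of 25 alternatives. Among them were the fits without GCP 2, GCP 3 or GCP 4 (limma, adjusted p = 0.0724, 0.0530 and 0.0595), with quantile normalisation (0.0683) and with averaged GCP pairs (0.162).

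Sdhd measured 9.21, 9.33, 9.62 and 9.62 in GCP, 8.94, 9.12, 9.21, 9.15 and 9.02 in pretumor, and 8.99, 9.18, 9.12, 9.04 and 9.17 in tumor. Tumor and pretumor covered nearly the same range, with GCP 1 at its upper edge and the other 3 GCP arrays above it. Tumor minus GCP was -0.34 (SE 0.09, limma, adjusted p = 0.0490) and pretumor minus GCP -0.36 (SE 0.09, adjusted p = 0.0428), 1.27-fold and 1.28-fold lower than GCP, whose arrays both comparisons share. These were the least stable calls: the first ended in 19 of 25 alternatives and the second in 18, with adjusted p of 0.482 and 0.436 without GCP 3 and GCP 4. With 1 array left out, the first was kept only without GCP 1 or pretumor 1 (otherwise adjusted p = 0.0526 to 0.156), and the second only without GCP 1, pretumor 3 or tumor 1 (otherwise 0.0502 to 0.138).

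Sdha measured 6.06, 5.88, 4.97 and 5.94 in GCP, 6.61, 6.67, 6.64, 6.81 and 6.32 in pretumor, and 6.63, 5.84, 6.31, 6.29 and 6.29 in tumor. Every pretumor array lay above every GCP array, GCP 3 lay far below the other GCP arrays, and tumor overlapped both. Pretumor averaged 6.61 ± 0.18 and GCP 5.71 ± 0.50 (SD, n = 5 and 4), a difference of 0.90 (SE 0.21, limma, adjusted p = 0.0354) or 1.86-fold higher in pretumor. Tumor minus GCP was 0.56 (adjusted p = 0.209). The call ended in 13 of 25 alternatives, 7 of them with a single array left out (GCP 2, GCP 4, tumor 4 or any of pretumor 1 to 4; adjusted p = 0.0520 to 0.0838), and without GCP 3 and GCP 4 its adjusted p was 0.158.

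Sdhb had 9.41, 9.39, 9.96 and 9.93 in GCP, 9.06, 8.84, 9.66, 8.63 and 9.51 in pretumor, and 8.35, 9.57, 9.19, 8.91 and 9.18 in tumor. The later stages spread widely and reached the GCP range (tumor minus GCP -0.63, adjusted p = 0.268; pretumor minus GCP -0.53, adjusted p = 0.379). Its probe set has a suffix for sequences shared with other transcripts.

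Complex III, which passes electrons from ubiquinol to cytochrome c, was lower in tumor than in GCP by group mean for 8 of 8 genes, with a median of -0.32, and 0 passed the test. Differences ran from -0.67 to -0.13, and at an unadjusted p under 0.05 there were 3 genes lower (37.5%, against 10.5% of all genes). In tumor minus pretumor 7 of 8 were negative (median -0.20), and in pretumor minus GCP 6 of 8 (median -0.10).

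Uqcr11, a small subunit, had 7.27, 7.41, 7.24 and 7.22 in GCP, 7.90, 7.46, 6.82, 6.99 and 6.80 in pretumor, and 5.95, 6.32, 6.42, 7.17 and 7.20 in tumor. The tumor arrays lay below the GCP arrays, tumor 4 and tumor 5 only just, and the difference of -0.67 did not pass (SE 0.29, limma, adjusted p = 0.273). Uqcrc1, a core protein, had 10.68, 10.32, 10.36 and 10.58 in GCP, 10.45, 10.22, 9.83, 10.18 and 9.99 in pretumor, and 9.83, 9.65, 10.20, 10.04 and 10.31 in tumor. Tumor lay just below GCP without overlap (difference -0.48, SE 0.15, adjusted p = 0.114). Cyc1, the cytochrome c1 that hands electrons to cytochrome c, had 11.08, 11.11, 11.68 and 11.47 in GCP, 11.03, 10.87, 11.18, 10.75 and 11.14 in pretumor, and 11.06, 11.47, 10.94, 10.72 and 10.83 in tumor. GCP 1 and GCP 2 lay within the range of both later stages (tumor minus GCP -0.33, adjusted p = 0.391). Uqcrc2, the other core protein, differed by -0.46 in tumor minus GCP (adjusted p = 0.140).

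Cycs, the mobile electron carrier that also triggers caspase activation when released, had 6.00, 6.06, 6.61 and 6.56 in GCP, 5.63, 6.16, 7.16, 5.91 and 6.17 in pretumor, and 6.76, 7.66, 5.99, 6.29 and 5.87 in tumor. It varied more between arrays of a stage than between stages. Tumor minus GCP was 0.21 (SE 0.38, adjusted p = 0.935), tumor minus pretumor 0.31 (adjusted p = 0.810) and pretumor minus GCP -0.10 (adjusted p = 0.988).

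Complex IV, cytochrome c oxidase, had 7 genes above the low band, of which 6 were negative in tumor minus GCP (median -0.16), 4 in tumor minus pretumor (median -0.03) and 6 in pretumor minus GCP (median -0.15). Cox6a1, the broadly expressed isoform of subunit 6a, fell in tumor against GCP. It measured 12.36, 12.62, 12.76 and 12.70 in GCP, 12.43, 12.45, 12.59, 12.34 and 12.57 in pretumor, and 12.19, 12.38, 12.23, 12.06 and 12.29 in tumor. GCP 1 lay within the tumor range, and the other 3 GCP arrays lay above it. Tumor averaged 12.23 ± 0.12 and GCP 12.61 ± 0.18 (SD, n = 5 and 4), a difference of -0.38 (SE 0.09, limma, adjusted p = 0.0253) or 1.30-fold lower in tumor. The call ended in 9 of 25 alternatives. Among them were the fits without any 1 of GCP 2, GCP 3, GCP 4, tumor 1 or tumor 4 (limma, adjusted p = 0.0582 to 0.0899), and with averaged GCP pairs (0.104). Its probe set has the suffix for a gene family, so related transcripts may add to the signal. Of the 70 probe sets used, 11 have this suffix, among them those of Ndufb5, Uqcrc2, Cox4i1 and Atp5g2. That of Atp5c1 has another suffix letter, and 52 have none.

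Several complex IV subunits exist as tissue isoforms. Cox4i1, the general form of subunit 4, had 6.24, 6.30, 6.64 and 6.52 in GCP, 6.27, 6.39, 6.29, 6.28 and 6.12 in pretumor, and 6.24, 6.47, 6.17, 6.07 and 6.21 in tumor (tumor minus GCP -0.19, adjusted p = 0.370). Cox7a2, the general form of subunit 7a, had 11.37, 11.09, 11.54 and 11.48 in GCP, 11.44, 11.47, 11.73, 11.43 and 11.27 in pretumor, and 11.39, 11.75, 11.17, 11.56 and 11.46 in tumor, the 1 gene of the complex above the band with a positive difference in tumor minus GCP (0.10, adjusted p = 0.854). Cox7a2l, a relative that helps join respiratory complexes into supercomplexes, had 10.17, 10.06, 10.29 and 10.14 in GCP, 10.00, 9.86, 9.92, 9.99 and 10.01 in pretumor, and 9.89, 10.30, 9.81, 10.02 and 9.99 in tumor. Its pretumor arrays lay below its GCP arrays by a small margin (-0.21, adjusted p = 0.227).

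The muscle and heart forms Cox6a2 and Cox7a1 stayed in the low band, at 1.57 to 1.84 and 1.38 to 1.88 over the 14 arrays. The muscle form Cox8b lay at 2.30 to 2.89, and the testis forms Cox6b2 and Cox8c at 1.64 to 2.53 and 2.12 to 2.65. The general forms Cox6b1 (2.84 to 3.57) and Cox8a (1.41 to 1.92) also lay in the band, so no isoform could be set against another. Cox5b, a nuclear subunit that binds zinc, had 10.46, 10.31, 10.76 and 10.76 in GCP, 10.37, 10.34, 10.58, 9.87 and 10.56 in pretumor, and 10.13, 10.61, 10.28, 9.99 and 10.51 in tumor, overlapping across the stages (tumor minus GCP -0.27, adjusted p = 0.523).

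Complex V, ATP synthase, had 0 genes past the test in limma in any comparison, each gene taken by its brightest probe set. At an unadjusted p under 0.05, 1 lay lower in tumor minus GCP and 1 lower in tumor minus pretumor (7.14% each, against 10.5% and 5.84% of all genes). Of its 10 genes above the low band, 9 were negative in tumor minus GCP (median -0.21), 7 in tumor minus pretumor (median -0.05) and 6 in pretumor minus GCP (median -0.02). Atp5c1, the gamma subunit that turns in the central stalk, had 11.80, 11.90, 12.50 and 12.24 in GCP, 11.80, 11.72, 12.09, 11.67 and 12.00 in pretumor, and 11.94, 12.34, 11.66, 11.62 and 11.75 in tumor (tumor minus GCP -0.25, adjusted p = 0.599). Its other probe set gave -0.15 (adjusted p = 0.554). Atp5d was represented by a probe set in the low band (tumor minus GCP, limma, adjusted p = 0.429). Another of its 5 probe sets, also in the band and nearly as bright, lay lower in that comparison (adjusted p = 0.0437). Atp5l, subunit g of the membrane part, had 7.53, 7.50, 7.29 and 6.91 in GCP, 10.35, 7.91, 7.81, 7.34 and 7.85 in pretumor, and 5.20, 6.77, 6.83, 7.77 and 7.68 in tumor. Pretumor 1 and tumor 1 lay far from their groups, and its tumor minus pretumor difference of -1.40 did not pass (SE 0.59, adjusted p = 0.383).

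Atp5g1 and Atp5g2 encode the same mature c subunit of the rotor ring. Atp5g1 had 4.18, 3.68, 4.16 and 4.11 in GCP, 3.89, 4.04, 4.37, 4.18 and 4.36 in pretumor, and 4.28, 4.42, 4.14, 4.08 and 4.41 in tumor, at the edge of the low band (tumor minus GCP 0.24, adjusted p = 0.449). Atp5g2 had 5.10, 5.21, 5.10 and 5.09 in GCP, 5.12, 5.39, 4.68, 4.88 and 4.78 in pretumor, and 4.60, 5.00, 4.83, 4.97 and 5.16 in tumor (tumor minus GCP -0.21, adjusted p = 0.568). Both overlapped across the 3 stages. Atp5a1, the alpha subunit of the head, differed by -0.04 in tumor minus GCP and -0.01 in pretumor minus GCP (adjusted p = 0.956 and 1.0). Atp5o, which joins the stator to the head, differed by -0.35 in tumor minus GCP (adjusted p = 0.112).

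Within a stage, many subunit genes were high or low on the same arrays. The median deviation of the 53 genes from their group mean was -0.15 and -0.09 on GCP 1 and GCP 2, and 0.11 on both GCP 3 and GCP 4. GCP 3 and GCP 4 were both higher than GCP 1 and GCP 2 for 32 of the 53 genes (60.4%, against 33.7% of all genes above the band) and both lower for 7 (13.2%, against 29.6%). Among the tumor arrays, tumor 2 was the highest for 33 genes (62.3%, against 24.7%) and tumor 1 the lowest for 25 (47.2%, against 16.6%). In pretumor, pretumor 3 was the highest for 22 (41.5%, against 41.8%) and pretumor 4 the lowest for 16 (30.2%, against 9.31%).

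The ratio of 3′ to 5′ signal of the Gapdh control, a measure of RNA and labelling quality, was lowest of its group on GCP 3, GCP 4, pretumor 3 and tumor 2. On the log2 scale it was 0.461, 0.558, -0.0179 and -0.0182 on GCP 1 to 4, 0.786, 1.08, 0.00563, 0.854 and 0.186 on pretumor 1 to 5, and 0.279, 0.151, 0.391, 0.419 and 0.348 on tumor 1 to 5. The same ratio of the actin control did not single out these arrays. It was 4.02, 4.27, 3.96 and 4.18 on GCP 1 to 4, 4.13, 4.87, 4.26, 4.39 and 4.23 on pretumor 1 to 5, and 4.51, 4.85, 4.20, 3.99 and 3.93 on tumor 1 to 5, so tumor 2 had the highest value of its group. At 3.93 to 4.87 log2 units, the 3′ signal of actin lay far above its 5′ signal on every array, a limit on small differences. The part of either ratio in the differences was not tested. With pretumor 3 and tumor 2 left out together, tumor minus GCP was negative for 49 of 53 genes with a median of -0.30. Without GCP 1 and GCP 2 it was negative for 50, with a median of -0.33. Leaving out GCP 3 and GCP 4 instead gave 37 negative genes and a median of -0.11.

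**Figure D4:**
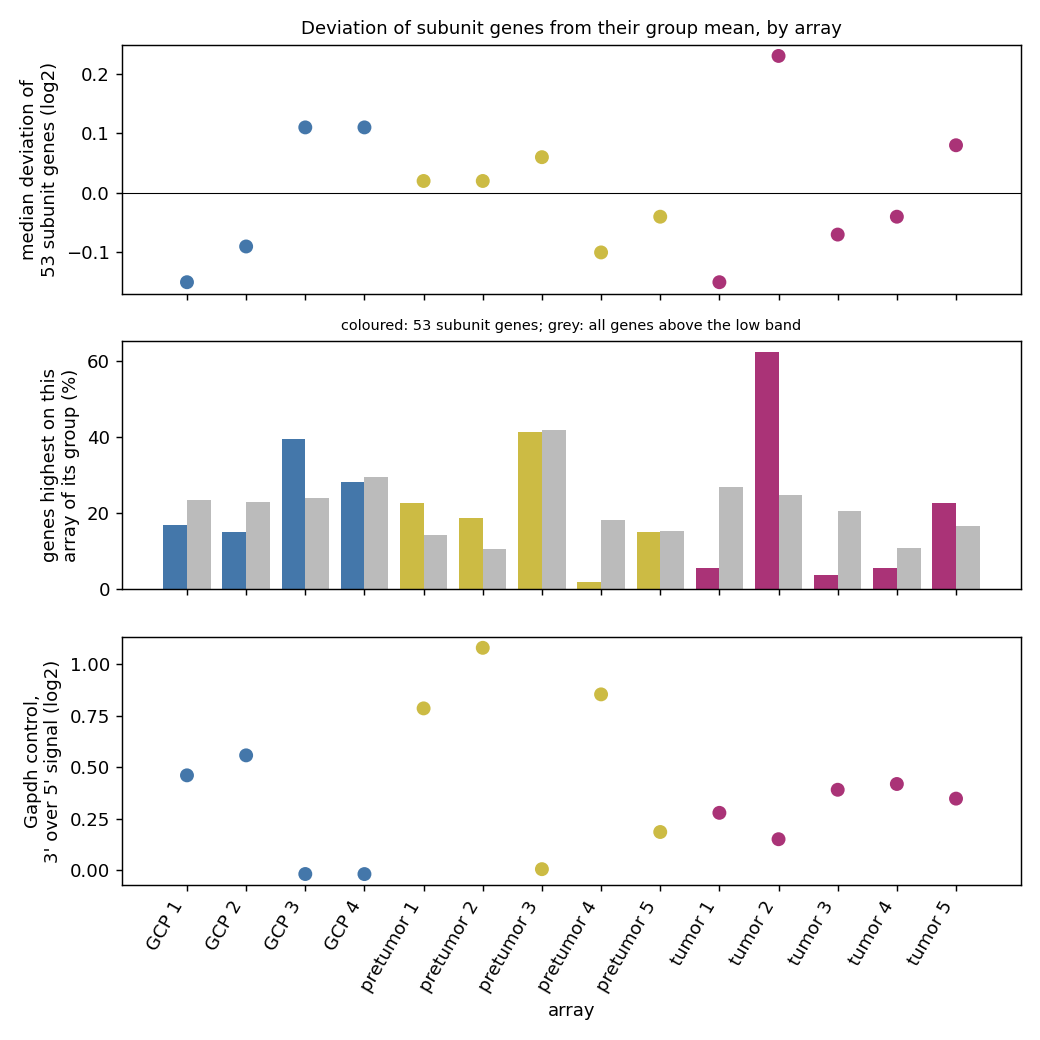
By array (x axis): the median deviation of the 53 subunit genes from their group means (log2, top), the percent of genes that were highest on that array of its group (middle; coloured bars subunit genes, grey bars all 2996 genes above the low band) and the log2 ratio of 3′ to 5′ Gapdh control signal (bottom). Tumor 2 was highest for 62.3% of subunit genes against 24.7% of all genes, and GCP 3, GCP 4, pretumor 3 and tumor 2 had the lowest ratio of their groups.

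Other mitochondrial genes showed few calls. For assembly factors and mitochondrial ribosomal proteins, the shares called lower lay near those of all genes (3.93% lower in tumor minus GCP and 3.25% lower in pretumor minus GCP). Some shares of the other lists lay further from the background. Of 22 measured assembly and insertion factors, 1 fell in tumor minus GCP (4.55%), Sdhaf1, which helps insert the iron-sulfur clusters of complex II (-0.95, adjusted p = 0.0431). Sdhaf2, which helps attach the flavin to Sdha, was the 1 that fell in pretumor minus GCP (-0.52, adjusted p = 0.0213). Of 23 genes of the citric acid cycle and pyruvate dehydrogenase, 0 passed the test in tumor minus GCP in limma. At an unadjusted p under 0.05, 5 lay lower and 1 higher (21.7% and 4.35%, against 10.5% and 7.49% of all genes). In pretumor minus GCP 2 of these 23 genes fell (8.70%, against 3.25% of all genes). They were Cs, citrate synthase (-0.36, limma, adjusted p = 0.0456), and Pdk3, a kinase that restrains pyruvate dehydrogenase (-0.48, adjusted p = 0.0455).

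Of 61 mitochondrial ribosomal proteins, 2 fell in tumor minus GCP (3.28%), Mrps26 (-0.56, adjusted p = 0.0199) and Mrpl11 (-0.25, adjusted p = 0.0390). In pretumor minus GCP 2 fell (3.28%), Mrpl11 (-0.24, adjusted p = 0.0494) and Mrps22 (-0.65, adjusted p = 0.0189), and Mrps22 rose in tumor minus pretumor (0.67, adjusted p = 0.0333), 1.64% against 0.133% of all genes. Above the band 34 of 49 such genes were negative in tumor minus GCP (69.4%, median -0.12, against 50.7% and -0.01 for all genes). In pretumor minus GCP 38 were negative (77.6%, median -0.17, against 53.3% and -0.02), and in tumor minus pretumor 17 (34.7%, median 0.04, against 47.3% and 0.02).

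Among 29 carriers, channels and related proteins, most differences above the band were negative in tumor minus GCP (14 of 17, 82.4%, median -0.17), yet 3 genes rose (10.3%, against 1.7% of all genes) and 0 fell. The 3 were the chaperones of that list, which were described as a group only after their values were seen. Hspd1, the mitochondrial chaperonin, averaged 12.23 ± 0.17 in tumor and 11.49 ± 0.11 in GCP (SD, n = 5 and 4; difference 0.73, limma, adjusted p = 0.00135). Its partner Hspe1 differed by 0.80 (adjusted p = 0.0235) and the import chaperone Hspa9 by 0.54 (adjusted p = 0.0152). In pretumor minus GCP, 12 of the 17 were negative (70.6%, median -0.16), 3 genes of the list rose (10.3%, against 1.99% of all genes) and 1 fell. Hspd1 (0.92, adjusted p = 0.000393) and Hspe1 (0.93, adjusted p = 0.0116) rose, as did Gpd2, the mitochondrial glycerol phosphate dehydrogenase, whose group means lay in the low band (adjusted p = 0.0154). Slc25a5, an ADP/ATP carrier, fell (-0.43, adjusted p = 0.0212).

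Of 15 measured regulators of mitochondrial gene expression, 1 rose in tumor minus GCP and in tumor minus pretumor (6.67% in each, against 1.7% and 0.133% of all genes), Myc, a transcription factor that drives growth. It averaged 2.05 ± 0.06 in GCP, 2.42 ± 0.35 in pretumor and 4.20 ± 0.70 in tumor, where single arrays ran from 3.58 to 5.07, so both earlier means lay in the low band (adjusted p = 0.00171 against GCP and 0.0129 against pretumor). Of the 7 regulators above the low band, 4 were positive and 3 negative in tumor minus GCP (42.9% negative, against 50.7% of all genes). Gabpa averaged 7.95 ± 0.42 in tumor and 7.56 ± 0.24 in GCP (limma, adjusted p = 0.643). Yy1 averaged 8.15 ± 0.55 in tumor and 7.92 ± 0.18 in GCP (adjusted p = 0.784). Gabpb1 differed by -0.35 (adjusted p = 0.78) and Hif1a by -0.14 (adjusted p = 0.876) in tumor minus GCP. Nrf1 was not among the 15 measured genes. Ppargc1a, Esrra and Tfam lay in the low band at every stage, so the array gave no level for these regulators.

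Levels of cell type markers also differed between stages, and the share of each cell type was not measured. The summed intensity of 10 granule lineage markers was 14919 to 17434 in GCP, 8558 to 11923 in pretumor and 9092 to 13296 in tumor. Of these 10 markers, 2 fell both in tumor and in pretumor against GCP, where 3.93% and 3.25% of all genes fell. They were the transcription factors Pax6 and Neurod1. Pax6 differed by -2.23 in tumor minus GCP (limma, adjusted p = 0.00214) and by -1.75 in pretumor minus GCP (adjusted p = 0.0108). Neurod1 differed by -1.25 (adjusted p = 0.0109) and -1.37 (adjusted p = 0.00707) in the same order. Zic1 averaged 12.64 in tumor and 12.74 in GCP and Ptch1 7.79 in tumor and 7.37 in GCP, neither past the test (adjusted p = 0.794 and 0.501), while Atoh1, which defines granule cell precursors, lay in the low band on every array. The summed intensity of 7 astrocyte and Bergmann glia markers was 9638 to 13272 in GCP, 1250 to 2015 in pretumor and 446.5 to 1891 in tumor. Of the 7, 4 fell in tumor minus GCP (57.1%, against 3.93% of all genes). In pretumor minus GCP 1 fell (14.3%, against 3.25%), and in tumor minus pretumor 1 (14.3%, against 0.957%). That of 8 microglia and macrophage markers was 135.8 to 364.1 in GCP, 792.2 to 1344 in pretumor and 616.6 to 1875 in tumor. Of the 8, 2 rose both in tumor and in pretumor against GCP, Lyz2 and Ctss (25.0% in each, against 1.7% and 1.99% of all genes). That of 3 red blood cell genes was 1919 to 4371 in GCP, 743.4 to 3414 in pretumor and 12.9 to 387.0 in tumor, and 2 fell in tumor minus GCP (66.7%, against 3.93%). That of 5 endothelial markers was 73.6 to 107.2 in GCP, 33.3 to 49.6 in pretumor and 19.5 to 32.2 in tumor. Of the 5, 4 fell both in tumor and in pretumor against GCP (80.0% in each, against 3.93% and 3.25%). That of 7 oligodendrocyte markers was 132.5 to 237.9, 242.6 to 714.6 and 75.2 to 156.4 in the same order of stages. Of the 7, 3 rose in pretumor minus GCP (42.9%, against 1.99%). In tumor minus pretumor 4 fell (57.1%, against 0.957%), and in tumor minus GCP 1 (14.3%, against 3.93%). The 6 markers of dividing cells summed to 3582 to 4190 in GCP, 2765 to 5368 in pretumor and 3031 to 5628 in tumor, and 1 fell in pretumor minus GCP (16.7%, against 3.25%). Gfap and Slc1a2 of the astrocyte list and Alas2 of the red blood cell list lay in the low band in the GCP arrays. A mean over all arrays of at least 4 was reached by 7 granule lineage and 5 astrocyte markers. The number was 4 for microglia, 2 for red blood cells, 1 for endothelium, 3 for oligodendrocytes and 4 for dividing cells. The other markers had means in the low band, so each sum rests on its brightest genes, such as Fabp7 among the astrocyte markers (13.24 in GCP). The part of the marker differences in the subunit values was not tested.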

How the data were processed

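The authors deposited linear intensities of 12488 probe sets. The steps of summary and normalisation are not given in the sources used here. Array medians lay within 0.094 log2 units, so no further normalisation was applied. The 66 control probe sets were set aside, values were floored at the 10th percentile (2.46) and log2 values were fitted with 3 group means in limma 3.58.1 (R 4.3.3, 11 residual degrees of freedom). Two-sided p-values were adjusted by the Benjamini-Hochberg method over 12422 probe sets and called under 0.05. The fit was checked on simulated data. Symbols came from the platform annotation. All 70 symbols stood in the RefSeq table of GRCm38.p6. A further 9 probe sets with several symbols were set aside. Genes were given on every array if called, if they had the highest mean or the largest difference of their complex, or if they were tissue isoforms. Ndufb8 and the core subunits named beside it were chosen after their values were seen, as were Uqcrc2, Atp5a1, Atp5o, Gabpa, Yy1, Gabpb1 and Hif1a. No fold is given where both group means lay in the low band, whose limit, 16, was set with the values known. The members and lists were chosen with earlier results of these data known. The number of arrays limits the precision. Alternatives were another floor, a pseudocount, dim probe sets left out, quantile normalisation, the compared groups alone, replicate numbers as a block, a trended robust variance, averaged GCP pairs and arrays left out.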

Additional observations from a re-analysis of the deposited data

Results flagged for a closer look

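In 9 of 159 groups of a subunit gene, 1 array lay far from the others of its stage by Dixon's ratio, which chance gives for about 1 group in 20. In tumor 2, Ndufb11 had a log2 intensity of 10.65 (other tumor arrays 10.09 to 10.22), Ndufb2 had 12.02 (11.22 to 11.44) and Atp5a1 had 11.39, the low end (11.67 to 11.75). In tumor 1, Sdhc had 7.85 (8.51 to 8.65). In pretumor 1, Uqcrq had 6.42 (4.95 to 5.29) and Atp5l had 10.35 (7.34 to 7.91). In GCP 3, Sdha had 4.97 (5.88 to 6.06). In GCP 2, Atp5g1 had 3.68, within the low band (4.11 to 4.18), and Atp5g2 had 5.21 (5.09 to 5.10). The cause was not tested.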

How the results depend on the processing

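Of the 5 genes lower in tumor minus GCP, the count was 3 with a floor at 16, 3 with dim probe sets left out, 1 with these groups fitted alone, 1 with each GCP pair averaged, 0 without GCP 3 and GCP 4, and 1 to 6 with 1 array left out. In pretumor minus GCP, the 1 higher gene became 0 with a floor at 16, the groups alone, the replicate block, averaged GCP pairs, without pretumor 3 and tumor 2, and without GCP 3 and GCP 4 (0 to 1 with 1 array left out). The 2 lower genes became 0 with a floor at 16, with averaged GCP pairs and without GCP 3 and GCP 4, and 1 with the replicate block, with a trended robust variance and without pretumor 3 and tumor 2 (0 to 4 with 1 array left out). Tumor minus pretumor had 0 calls in every alternative run. With 1 array left out, the median over 70 genes ran from -0.24 to -0.12 in tumor minus GCP, -0.11 to -0.03 in tumor minus pretumor and -0.10 to -0.03 in pretumor minus GCP. The fit with replicate numbers as a block gave 5 lower genes and a median of -0.18 in tumor minus GCP. Same-numbered samples correlated between -0.346 and 0.578 in their deviations, which does not settle whether the numbers pair them. The settings that drop 2 GCP arrays together were chosen after seeing the data. No called difference changed sign. Over the named genes, 1217 values kept their sign and side of the threshold, 82 lost a call, 12 gained one, and 36 changed sign with no call in either setting, such as Ndufa7 in tumor minus GCP (-0.08, but 0.12 without GCP 3 and GCP 4 and 0.01 without tumor 1) and Cycs (0.21, but -0.08 without tumor 2). The causes were not tested. Signal in the low band limits 17 of the 70 genes.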
